A study of Mus musculus with 12 samples.

Results

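The replication-dependent histone genes were followed across 12 RNA-seq libraries from mouse embryonic fibroblast (MEF) lines. They were found by symbol, as genes of the Hist1, Hist2 and Hist3 clusters that encode H1, H2A, H2B, H3 or H4. There were 56 of them among 37310 genes in the count table: 6 H1, 18 H2A, 14 H2B, 6 H3 and 12 H4 genes. Of these, 45 lie in the Hist1 cluster, 8 in Hist2 and 3 in Hist3, and 3 are annotated as pseudogenes. Hist3h2a had a count of 0 in every library, and the other 55 passed the filter on low counts that left 16630 genes. A further 14 of the 70 annotated symbols of such genes, Hist4h4 among them, could not be matched by identifier and were not analysed here.

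The 4 groups of 3 libraries came from a pair of lines. The knockout line (KO) is labelled as HP1g -/-, without the heterochromatin protein HP1γ that Cbx3 encodes, and the HPg line is described as the same kind of cell with HP1γ expression put back. The groups were KO with 100 nM of the phorbol ester PMA, an activator of protein kinase C, for 30 min on nearly confluent cells, HPg with the same PMA treatment, KO without PMA and HPg without PMA. The sources used here do not give the vehicle of the untreated cells, the part of Cbx3 that was disrupted or the promoter behind the restored HP1γ. Each genotype is 1 line, so line and genotype cannot be told apart. The p-values measure the spread between libraries numbered as replicates, and the labels do not state what those numbers mean. Cbx3 averaged 36.5 ± 2.20 CPM (counts scaled to a common library total) in KO and 38.7 ± 2.45 CPM in HPg (SD, n = 3 each), with a log2 fold change of -0.08 (edgeR adjusted p = 0.838), and the difference with PMA was -0.28 (edgeR adjusted p = 0.269). Its level leaves the genotype labels unchecked, and KO and HPg are used below as names of the labelled lines.

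Replication-dependent histone genes are transcribed mainly in S phase, when new DNA is packed into nucleosomes. Their mRNAs end in a stem-loop bound by SLBP in place of a poly(A) tail, and they are made in nuclear bodies where NPAT drives their transcription. Because these mRNAs lack a tail, libraries made from total RNA depleted of ribosomal RNA, as here, can record them. Hist1h2aa and Hist1h2ba encode the testis variants TH2A and TH2B, which take the place of canonical H2A and H2B during the formation of sperm, and Hist1h1t encodes the testis linker histone.

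Hist1h2aa and Hist1h2ba turned out to be the only members called in the comparisons of the lines, so the 250 bases before their start sites are printed, beside those of the H2A and the H2B gene with the most counts, Hist2h2ac and Hist1h2bb. Sequences and positions are RefSeq's on GRCm38.p6, 5′ to 3′ on the strand of the gene. Capitals mark the octamer ATTTGCAT, the TATA box TATAAA and the CCAAT box, each on either strand.
Hist1h2aa: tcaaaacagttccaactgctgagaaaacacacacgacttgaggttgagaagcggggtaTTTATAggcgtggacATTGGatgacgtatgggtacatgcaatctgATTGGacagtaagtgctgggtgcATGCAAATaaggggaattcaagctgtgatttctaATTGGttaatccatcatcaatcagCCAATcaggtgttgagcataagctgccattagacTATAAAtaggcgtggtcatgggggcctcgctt
Hist1h2ba: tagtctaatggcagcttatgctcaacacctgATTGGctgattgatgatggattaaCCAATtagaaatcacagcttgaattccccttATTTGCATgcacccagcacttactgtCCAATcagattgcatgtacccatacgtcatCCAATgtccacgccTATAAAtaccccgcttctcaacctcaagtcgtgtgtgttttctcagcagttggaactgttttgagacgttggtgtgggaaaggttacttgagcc
Hist2h2ac: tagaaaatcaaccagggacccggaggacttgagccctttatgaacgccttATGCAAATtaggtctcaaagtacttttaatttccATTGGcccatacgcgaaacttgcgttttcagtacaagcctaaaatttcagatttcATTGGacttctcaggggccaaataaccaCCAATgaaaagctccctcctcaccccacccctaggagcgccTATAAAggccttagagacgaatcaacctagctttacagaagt
Hist1h2bb: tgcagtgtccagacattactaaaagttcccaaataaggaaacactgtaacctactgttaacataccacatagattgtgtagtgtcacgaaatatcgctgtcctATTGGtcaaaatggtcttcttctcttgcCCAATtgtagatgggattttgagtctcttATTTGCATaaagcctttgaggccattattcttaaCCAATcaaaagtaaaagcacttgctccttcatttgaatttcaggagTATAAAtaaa

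The windows of the testis genes are chr13:23934187-23934436 on the plus strand for Hist1h2aa and chr13:23934157-23934406 on the minus strand for Hist1h2ba. The genes point away from each other, their start sites lie 281 bases apart and their windows share 220 bases. Both therefore hold the same octamer, which begins 124 bases before the start of Hist1h2aa and 164 bases before that of Hist1h2ba. The Hist2h2ac window is chr3:96220881-96221130 on the minus strand and the Hist1h2bb window is chr13:23746484-23746733 on the plus strand. All 4 windows hold an octamer, at least 1 CCAAT box and a TATAAA, which lies 32 bases before the start of Hist1h2aa and 94 before that of Hist1h2ba.

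All 56 genes matched a RefSeq name, and 49 of them had a promoter window, 50 windows in all because Hist1h2be has a pair. The octamer stood in 12 of the 50 windows (24%), against 1.60% of 32851 promoter windows of the genome. It was in 7 of 16 H2A windows and 5 of 12 H2B windows, and in none of the 6 H1, 5 H3 and 11 H4 windows. TATAAA was in 50% of histone windows, against 12.4% of all promoters, and CCAAT in 82%, against 33.8%. These letters describe the windows and do not show that a factor binds there.

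H4 genes held the highest levels. Per kilobase of annotated exon, Hist1h4k averaged 2596 CPM over the 12 libraries, Hist1h4f 1911, Hist1h4h 1694 and Hist1h4b 1320. Hist1h2bb led the H2B genes at 856 CPM per kb, Hist1h1b the H1 genes at 599, Hist2h2ac the H2A genes at 570 and Hist1h3c the H3 genes at 559. The testis variants ranked 44 (Hist1h2ba, 15.2 CPM per kb) and 46 (Hist1h2aa, 6.39 CPM per kb) of the 55 genes with counts. Hist1h1t, at 0.19 CPM per kb, ranked 53. Exon lengths came from an annotation later than the one counted, and 7 genes, Hist1h1d among them, have over 2000 annotated bases, which lowers a value per kb.

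**Figure D1:**
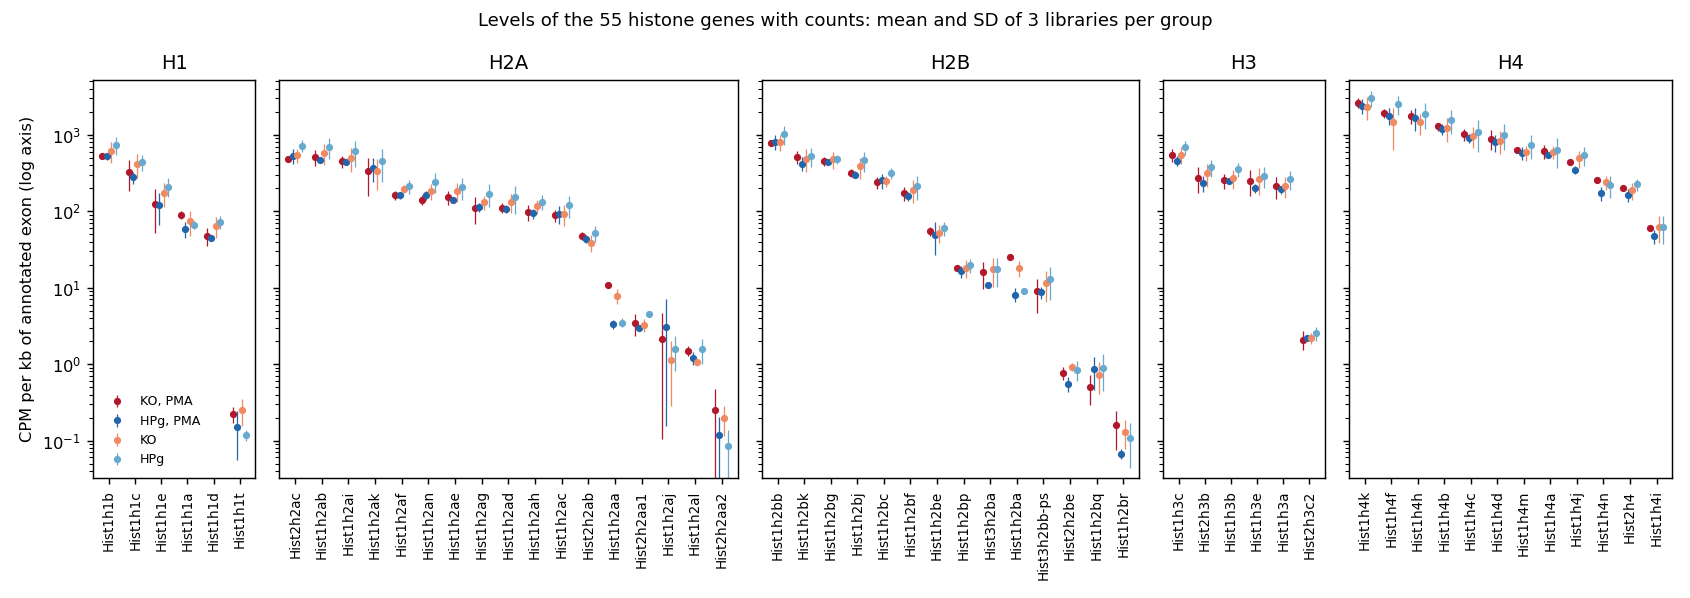
Level of each histone gene with counts, in CPM per kb of annotated exon on a log axis, by histone type. Points are means and bars the SD of 3 libraries per group, and a lower bar that would reach 0 is cut short. H4 genes hold the top of the axis, and Hist1h2aa and Hist1h2ba show KO points above HPg points with and without PMA.

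Total counts per library were 111458145 to 159929347, and histone genes took 0.89% to 1.74% of them. Libraries of the same group differed widely. The summed histone level was 13785, 10809.8 and 10861 CPM in KO with PMA, 10077, 10939.6 and 11554 CPM in HPg with PMA, 15389, 8462 and 11954 CPM in KO, and 17566, 10027 and 15959 CPM in HPg. The second KO library held the lowest value of its group for 49 of 55 histone genes, and so did the second HPg library, where 40.9% and 42.9% of all tested genes had their group's lowest value. HPg library 2 also detected fewer genes, 17822 against 19759 to 20656 in the others. The noncoding RNAs Rpph1, Rn7sk and Rmrp summed to 207457, 128626 and 184996 CPM in KO with PMA, 92771, 120067 and 169338 CPM in HPg with PMA, 168183, 81527 and 141049 CPM in KO, and 144697, 112622 and 134386 CPM in HPg. In the untreated groups the second library was thus lowest for these RNAs too, and the part of this in the histone values was not tested. In bulk libraries a smaller share of cells in S phase and less histone RNA per cell cannot be told apart.

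**Figure D2:**
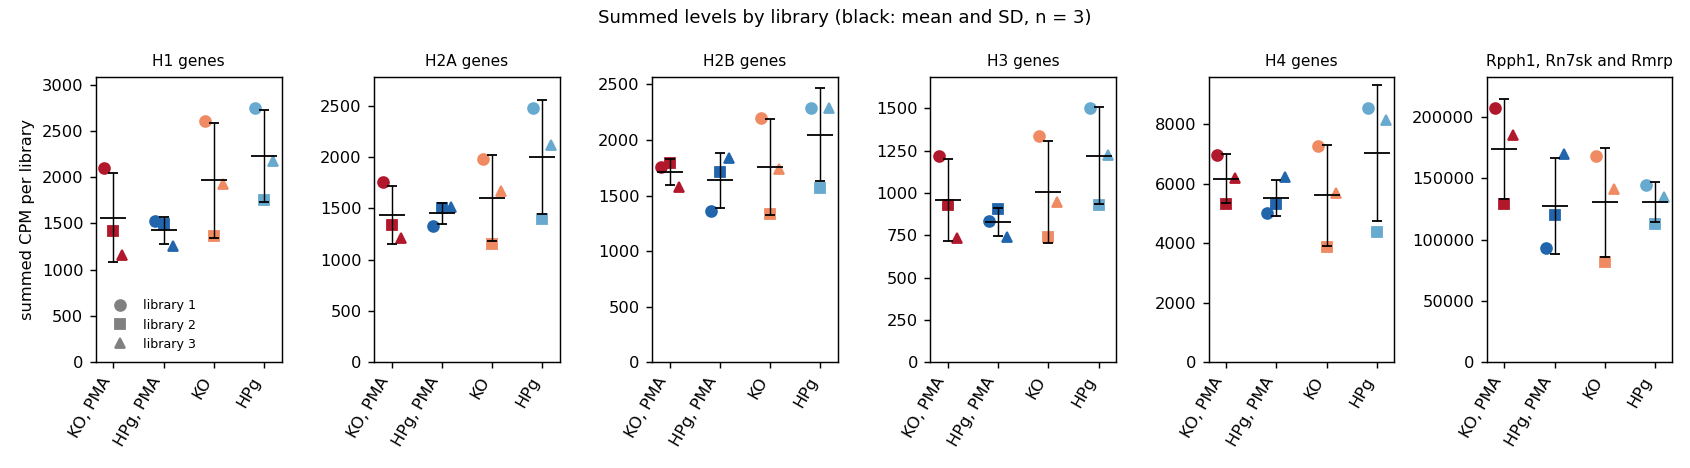
Summed CPM of the genes of each histone type, and of 3 abundant noncoding RNAs, in each library, with the mean and SD of each group in black. Symbols show the library number. KO and HPg libraries overlap for every type, with and without PMA, and the second KO and HPg libraries without PMA, drawn as squares, are lowest of their group throughout.

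H1 genes summed to 1561 ± 483 CPM in KO with PMA, 1424 ± 146 in HPg with PMA, 1964 ± 623 in KO and 2227 ± 501 in HPg (SD, n = 3 each). H4 genes summed to 6155 ± 819 CPM in KO with PMA, 5518 ± 615 in HPg with PMA, 5605 ± 1697 in KO and 7027 ± 2296 in HPg. H3 genes had the smallest sums, 960 ± 243, 828 ± 82.1, 1006 ± 302 and 1220 ± 287 CPM in the same order of groups. For H1 and H3 the highest HPg library with PMA, at 1524 and 907 CPM, lay below the lowest HPg library, at 1753 and 930 CPM, while KO and HPg overlapped for every type. H4 made up 43.7% to 56.9% of the histone CPM of a library.

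Without PMA, both testis variants were higher in the KO-labelled line, and no other histone gene passed the test in either direction. Hist1h2aa stood at 3.32, 2.27 and 3.64 CPM in KO, against 1.26, 1.26 and 1.58 CPM in HPg. Every KO library lay above every HPg library, and the log2 fold change was 1.17 ± 0.22 (SE; 2.25-fold, edgeR adjusted p = 0.0251). Hist1h2ba stood at 7.10, 5.27 and 8.59 CPM in KO, against 3.36, 3.31 and 3.59 CPM in HPg, again without overlap. Its log2 fold change was 1.03 ± 0.20 (SE; 2.04-fold, edgeR adjusted p = 0.0281). These 2 called genes of 55 compare with 1.32% of all tested genes called, 0.806% higher and 0.511% lower in KO.

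Between same-numbered libraries the KO excess on the log2 scale was 1.37, 0.83 and 1.18 for Hist1h2aa and 1.07, 0.66 and 1.25 for Hist1h2ba. Libraries with the same number deviated together, and with that number as a block the edgeR adjusted p was 0.00158 for Hist1h2aa and 0.00116 for Hist1h2ba, the only histone genes called, against 7.08% of all genes called higher and 5.44% lower. Both calls were lost when only the KO and HPg libraries entered the fit (edgeR adjusted p = 0.166 and 0.150), and also without KO library 1 or 3 or HPg library 1 or 3, while leaving out HPg library 2 ended the call of Hist1h2ba only (adjusted p = 0.0501). The log2 fold change stayed between 1.03 and 1.34 for Hist1h2aa and between 0.86 and 1.19 for Hist1h2ba over all 17 settings.

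The rest of the family lay mostly below 0 in this comparison, without passing the test. The median log2 fold change of the 55 genes was -0.24, against 0.01 over all genes, and 10 of 55 lay above 0, against 51.3% of all genes. Without the testis variants the median of the other 53 was -0.26, and 8 of them lay above 0. The median of all 55 was -0.46 without KO library 1 and -0.06 without KO library 2. By type the median was -0.14 for H1, -0.38 for H2A, -0.14 for H2B, -0.28 for H3 and -0.26 for H4. Only 1 other histone gene, Hist1h4f, had an unadjusted edgeR p under 0.05, as 14.3% of all genes did. It stood at 930, 451 and 319 CPM in KO, against 1174, 676 and 1080 CPM in HPg, so the lines overlapped, with a log2 fold change of -0.79 ± 0.35 (SE; edgeR adjusted p = 0.327). The 3 genes with the highest mean CPM were all H4 genes: Hist1h4d averaged 946 ± 316 CPM in KO and 1145 ± 425 CPM in HPg, Hist1h4c 791 ± 240 and 881 ± 393 CPM, and Hist1h4k 731 ± 250 and 950 ± 222 CPM. Their lines overlapped as well.

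Between same-numbered libraries the lower values in KO recurred. The summed histone level of KO over HPg differed by -0.19, -0.24 and -0.42 on the log2 scale in pairs 1, 2 and 3. The sum of every type was lower in KO in each pair. Of the 55 genes, 30 were lower in KO in all 3 pairs, against 25.5% of all genes, and 3 were higher in all 3. The block alone called none of them lower. The block with a correction for GC content and exon length called 8 lower, against 7.6% of the genes with a known length: Hist1h2bb, Hist1h3a, Hist1h3b, Hist1h3c, Hist1h4b, Hist1h4k, Hist2h2ab and Hist2h2ac.

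Among the leading genes of the types other than H4 the values went the same way with 1 exception. Hist2h2ac, the leading H2A gene, stood at 333, 217 and 296 CPM in KO, against 420, 300.4 and 403 CPM in HPg (log2 fold change -0.41, edgeR adjusted p = 0.396). Hist1h3c, the leading H3 gene, averaged 346 ± 84.9 CPM in KO and 430 ± 88.0 CPM in HPg (log2 fold change -0.31, edgeR adjusted p = 0.582). Hist1h2bg, the third of the H2B genes, had the same level in both lines, 296 ± 75.9 CPM in KO and 297 ± 43.6 CPM in HPg. The linker histone Hist1h1c averaged 645 ± 218 CPM in KO and 684 ± 166 CPM in HPg, and Hist1h1b 455 ± 135 and 548 ± 145 CPM. The next H2A genes by mean CPM were Hist1h2ab, at 274 ± 81.9 CPM in KO and 331 ± 99.9 CPM in HPg, and Hist1h2ac, at 228 ± 70.1 and 299 ± 95.5 CPM. Of the H2B genes, Hist1h2bb averaged 407 ± 99.3 CPM in KO and 520 ± 147 CPM in HPg, and Hist1h2bc 285 ± 44.8 and 363 ± 62.3 CPM. The H3 genes Hist1h3e and Hist1h3b averaged 223 ± 85.7 and 168 ± 45.6 CPM in KO, against 245 ± 75.0 and 219 ± 45.8 CPM in HPg. All these genes overlapped between the lines, and their edgeR adjusted p-values were 0.396 or above. Libraries of the lines did not overlap for 3 genes that were higher in KO, the testis variants and Hist1h1t, and for 1 that was lower, Hist2h2aa1, against 9.57% and 8.95% of all genes. Hist1h1t, at 0.23 ± 0.09 CPM in KO and 0.11 ± 0.02 CPM in HPg, had 262 counts over all libraries and was not called (log2 fold change 1.08 ± 0.57, SE; edgeR adjusted p = 0.422).

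**Figure D3:**
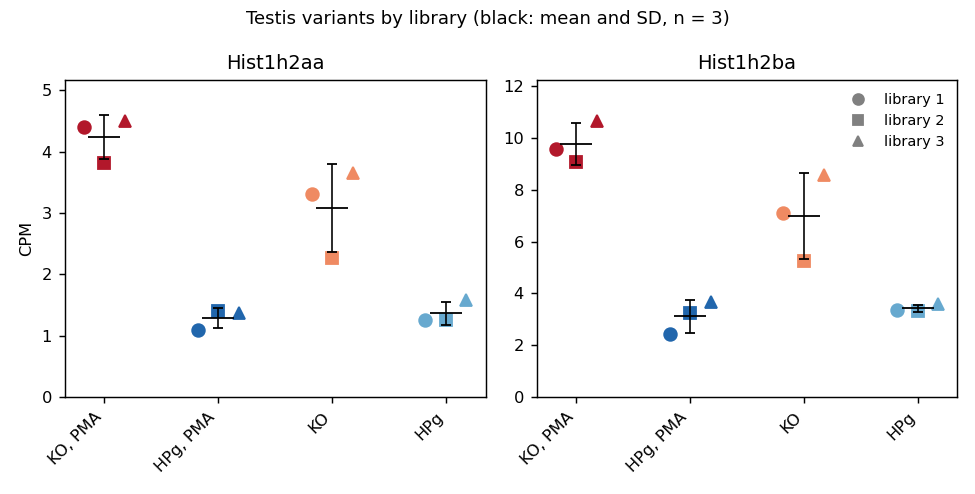
CPM of Hist1h2aa and Hist1h2ba in each library, with the mean and SD of each group in black and symbols for the library number. For Hist1h2aa the KO libraries lie at 2.27 CPM or above and the HPg libraries at 1.58 CPM or below, with and without PMA, and for Hist1h2ba the values are 5.27 and 3.68 CPM.

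With PMA in both lines the difference in the testis variants was larger in value. Hist1h2aa stood at 4.40, 3.82 and 4.50 CPM in KO with PMA, against 1.09, 1.40 and 1.37 CPM in HPg with PMA. The log2 fold change was 1.72 ± 0.22 (SE; 3.29-fold, edgeR adjusted p = 0.00397). Hist1h2ba stood at 9.58, 9.08 and 10.7 CPM in KO with PMA, against 2.44, 3.24 and 3.68 CPM in HPg with PMA. Its log2 fold change was 1.65 ± 0.20 (SE; 3.13-fold, edgeR adjusted p = 0.00287). Both were called in all 17 settings. They were again the only 2 histone genes called, against 2.47% of all genes in either direction and 1.29% higher, and the only ones with the block, against 9.49% higher.

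The pair moved in step. Hist1h2ba counts were 2.14 to 2.68 times those of Hist1h2aa in every library. Both stayed a minor part of their families. Hist1h2aa made up 0.251%, 0.285% and 0.372% of the H2A sum in KO with PMA, 0.082%, 0.093% and 0.091% in HPg with PMA, 0.167%, 0.197% and 0.218% in KO, and 0.051%, 0.090% and 0.075% in HPg. Hist1h2ba made up at most 0.676% of the H2B sum, in the third KO library with PMA. An annotated gene, Gm44344, lies on the strand opposite Hist1h2aa, and the sources used here do not say whether counting used strand. Hist1h2ba overlaps no exon of another gene.

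The rest of the family lay slightly above 0 in this comparison. The median of the 55 genes was 0.13, against 0.01 over all genes, and 45 of 55 lay above 0, against 51.3% of all genes. Without the testis variants the median of the other 53 was also 0.13, and 43 of them lay above 0. The median was 0.17 for H1, 0.05 for H2A, 0.14 for H2B, 0.19 for H3 and 0.16 for H4, and a correction for GC content and exon length brought that of all 55 to 0.00. Groups did not overlap for 8 genes that were higher in KO with PMA, against 12.5% of all genes. Without the testis variants these were 6 of 53. None was lower without overlap, against 12.4% of all genes. Pairs of same-numbered libraries differed, with a median log2 difference of 0.45 in pair 1, 0.01 in pair 2 and -0.08 in pair 3. The short noncoding RNAs differed by 1.16, 0.10 and 0.13 on the log2 scale, also most in pair 1, but with the other sign in pair 3. Without PMA they differed by 0.22, -0.47 and 0.07 between the lines, and the summed histone level by -0.19, -0.24 and -0.42. The part of these RNAs in the histone values was not tested.

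Beside the testis variants, 3 histone genes had an unadjusted edgeR p under 0.05, against 18.4% of all genes, and the lines did not overlap for any of them: Hist1h1a, Hist1h4n and Hist1h2br, which had 396 counts in all. Hist1h1a, a linker histone, stood at 72.9, 57.3 and 68.2 CPM in KO with PMA, against 31.2, 50.4 and 48.7 CPM in HPg with PMA (log2 fold change 0.61, edgeR adjusted p = 0.222). Hist1h4n, an H4 gene, stood at 120.5, 112.8 and 100.8 CPM in KO with PMA, against 56.3, 87.0 and 78.0 CPM in HPg with PMA (log2 fold change 0.59, edgeR adjusted p = 0.218). Both were called when all libraries numbered 2 were left out, which gave 4 called histone genes. The share of all genes called in that fit is not given here. Hist1h1a and Hist1h4n were singled out after their values were seen.

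**Figure D4:**
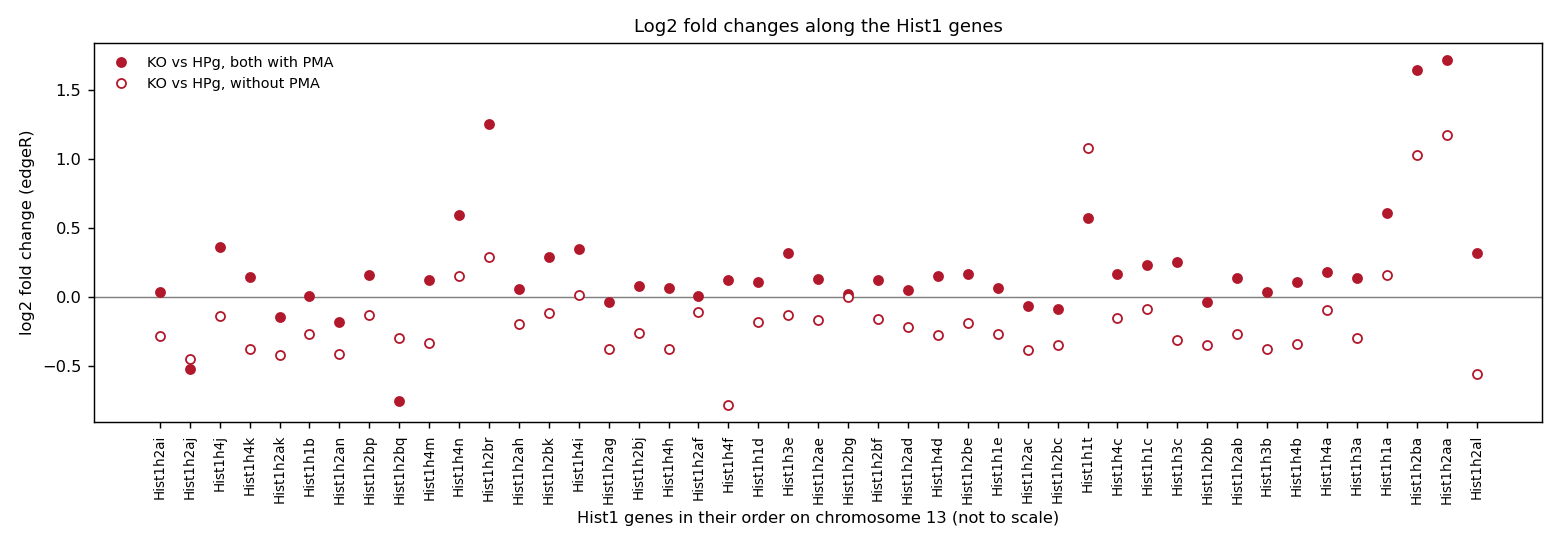
Log2 fold change of KO over HPg for each Hist1 gene in its order on chromosome 13, with PMA (filled) and without (open). Hist1h2ba and Hist1h2aa stand next to each other near one end at 1.65 and 1.72 with PMA and 1.03 and 1.17 without, and the genes around them lie closer to 0.

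In the annotation on GRCm38 the testis pair stands apart from the main run of Hist1 genes. The nearest histone gene on that side, Hist1h1a, lies 169367 bases away, with a log2 fold change of 0.16 without PMA (edgeR adjusted p = 0.839). Carmil1, an actin regulator 77493 bases away on the other side, had -0.16 without PMA (edgeR adjusted p = 0.807) and -0.47 with PMA (edgeR adjusted p = 0.253). The genes in between, Trim38, Scgn and the phosphate transporter genes Slc17a1 to Slc17a4 among them, had at most 80 counts over all libraries and were not tested. Further into the cluster, between Hist1h4c and Hist1h1c, Hfe, a regulator of iron uptake singled out after its values were seen, was called higher in KO, at 14.8 ± 1.31 CPM against 9.22 ± 1.16 CPM in HPg (log2 fold change 0.68, edgeR adjusted p = 0.0412). With PMA it stood at 15.5 ± 0.91 CPM in KO and 8.16 ± 1.19 CPM in HPg (log2 fold change 0.93, edgeR adjusted p = 0.00810).

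In HPg cells with 30 min of PMA, most of the family had lower values in the fit over all libraries. The pair of libraries numbered 2 went the other way, with a median log2 difference of 0.13. The calls depended on the pairing of libraries by number. No histone gene was called by edgeR, against 3.45% of all genes in either direction and 0.92% lower. An unadjusted edgeR p under 0.05 was held by 13, all lower. Of all genes 17.4% had one in either direction, and 1285 of 16630 in the lower direction. DESeq2 called 1 histone gene, Hist1h1d, and the share of all genes it called is not given here. The median of the 55 genes was -0.40, against -0.02 over all genes, and 3 of 55 lay above 0, against 47.2% of all genes. The median was -0.58 for H1, -0.43 for H2A, -0.33 for H2B, -0.53 for H3 and -0.36 for H4. With the library number as a block, 7 genes fell, against 6.19% of all genes: 3 linker histone genes, 3 H3 genes and 1 H4 gene.

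Hist1h1d stood at 323, 345 and 314 CPM in HPg with PMA, against 646.5, 439 and 534 CPM in HPg, without overlap. Its blocked log2 fold change was -0.69 ± 0.16 (SE; edgeR adjusted p = 0.0123 with the block and 0.138 without). Hist1h1c, one of the most abundant linker histone genes, stood at 483, 470.3 and 347 CPM in HPg with PMA, against 860, 529 and 665 CPM in HPg (blocked log2 fold change -0.63, edgeR adjusted p = 0.0378 with the block and 0.316 without). Hist1h1e fell by 0.88 on the log2 scale with the block (edgeR adjusted p = 0.0118, and 0.377 without), at 231 ± 105 CPM in HPg with PMA and 405 ± 112 CPM in HPg. Part of its exon sequence overlaps Hist1h2be on the same strand, so its counts are uncertain.

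Of the H3 genes, Hist2h3b averaged 113 ± 26.1 CPM in HPg with PMA and 183 ± 45.3 CPM in HPg (edgeR adjusted p = 0.0258 with the block, 0.254 without). Hist1h3a averaged 103 ± 12.2 and 141 ± 39.2 CPM in the same groups (0.0301 and 0.408), and Hist1h3b 153 ± 11.4 and 219 ± 45.8 CPM (0.0474 and 0.245). Hist1h4j averaged 268 ± 34.1 CPM in HPg with PMA and 421 ± 116 CPM in HPg (0.0316 and 0.157). The 3 H3 genes, Hist1h1c and Hist1h1d had every HPg library with PMA below every HPg library without, as did Hist2h2aa1. These 6 of 55 genes are a share near the 10.3% of all genes that did so in that direction. The second HPg libraries differed least: the median log2 difference over the 55 genes was -0.85 in pair 1, 0.13 in pair 2 and -0.52 in pair 3. Without all libraries numbered 2, 10 genes were called lower, of which 1, Hist1h4j, was among the 7 called with the block. The share of all genes called lower in that fit is not given here, so the 10 cannot be set against it.

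**Figure D5:**
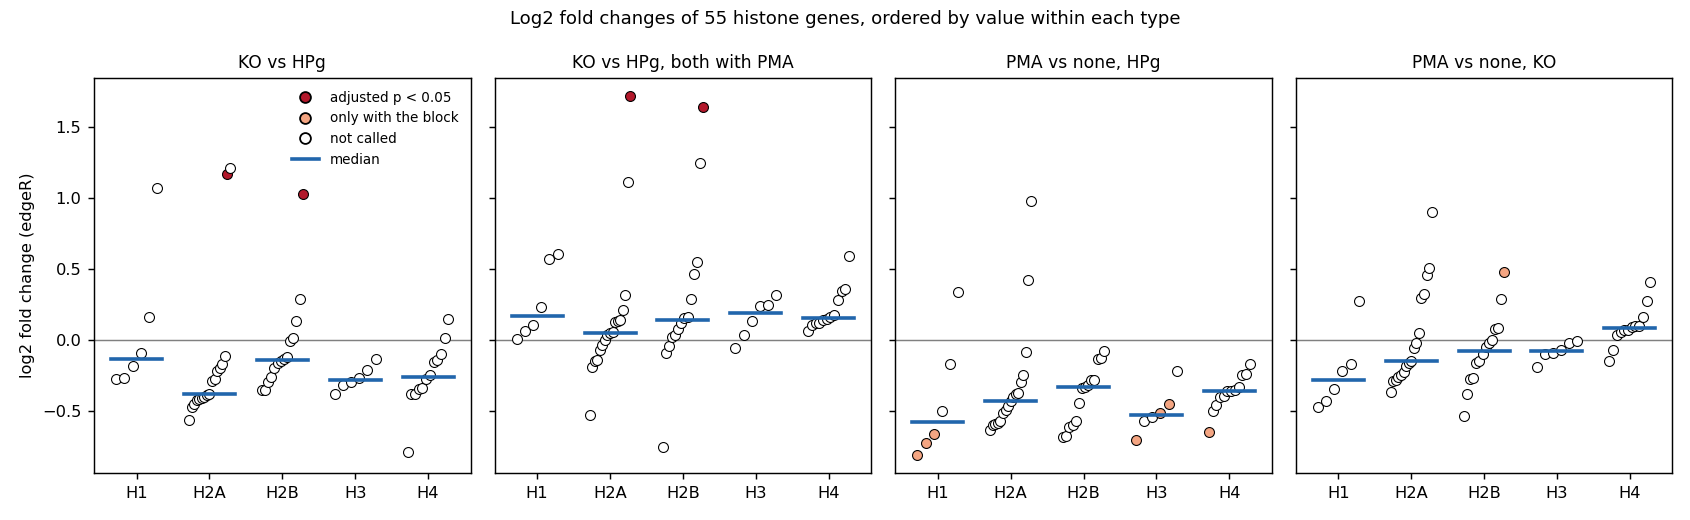
Log2 fold change of each of 55 histone genes in 4 comparisons, by histone type and in rising order within a type, with the type's median as a blue bar. Red points were called at an adjusted p under 0.05, and pale red points only with the library number as a block. The called points are Hist1h2aa and Hist1h2ba in both comparisons of the lines, and the medians lie below 0 for every type with PMA in HPg.

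In KO cells the PMA response of the family was smaller in value. The median was -0.06, against -0.02 over all genes, with 22 of 55 above 0, against 47.7% of all genes. No histone gene was called by edgeR, against 4.44% of all genes. DESeq2 called 0, and the share of all genes it called is not given here. An unadjusted edgeR p under 0.05 was held by 1 histone gene, against 15.9% of all genes. H1 had a median of -0.28 and H4 of 0.08. Hist1h2ba was the gene with that p: 9.77 ± 0.80 CPM in KO with PMA and 6.99 ± 1.66 CPM in KO, without overlap between the groups. Its log2 fold change was 0.48 ± 0.20 (SE; edgeR adjusted p = 0.246), and with the block 0.50 ± 0.16 (SE; edgeR adjusted p = 0.0487), the only histone gene called there, against 6.79% of all genes called higher. That call was lost with the GC content and length correction plus the block (log2 fold change 0.40, edgeR adjusted p = 0.0699), a fit that called 5 other histone genes lower. The share of all genes called lower in that fit is not given here. Hist1h2aa averaged 4.24 ± 0.36 CPM in KO with PMA and 3.08 ± 0.72 CPM in KO (log2 fold change 0.46, edgeR adjusted p = 0.327, and 0.109 with the block). The linker histone Hist1h1d averaged 353 ± 90.6 CPM in KO with PMA and 475 ± 148 CPM in KO (log2 fold change -0.43, edgeR adjusted p = 0.446).

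Whether PMA acted differently in the lines was tested as an interaction, the PMA log2 fold change in KO minus that in HPg. No gene of any kind was called (0%), by edgeR with or without the block, and DESeq2 called 1 gene overall and no histone gene. The histone median was 0.34, against 0.02 over all genes, and 51 of 55 genes lay above 0, against 52.2% of all genes. Hist1h2ba was the only histone gene with an unadjusted edgeR p under 0.05, against 1.97% of all genes (interaction 0.62 ± 0.28 on the log2 scale, SE). For Hist1h1d the interaction was 0.30 ± 0.34 and for Hist1h3c 0.56 ± 0.31 (SE). A difference between the lines in how histone genes respond to PMA was therefore not detectable. The 4 comparisons and the interaction share libraries and are not independent of each other.

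Of 36 tested genes for histone transcription and mRNA 3′ end processing or decay, 0 were called between KO and HPg without PMA, against 1.32% of all genes. With PMA 1 was lower in KO than in HPg, against 1.18%. Tut7 alone was higher with PMA in each line, against 2.53% of all genes called higher in HPg and 4.44% called in either direction in KO. The lower one was Snrpd3, a protein of the ring shared by the U7 and spliceosomal particles, at 41.5 ± 5.68 CPM in KO with PMA and 59.9 ± 3.63 CPM in HPg with PMA (log2 fold change -0.53, edgeR adjusted p = 0.0468). Tut7, a terminal uridyltransferase whose tailing marks RNAs for decay, averaged 127 ± 1.45 CPM in KO with PMA and 91.5 ± 3.87 CPM in KO (log2 fold change 0.47, edgeR adjusted p = 0.0110). In HPg it averaged 133 ± 1.43 CPM with PMA and 85.8 ± 1.10 CPM without (0.63, edgeR adjusted p = 0.00210). With the library number as a block more of these genes were called. In KO over HPg 4 were lower, against 5.44% of all genes: Cstf1, Snrpd3, Snrpf and Upf1. In KO with PMA over HPg with PMA 5 were lower, Casp8ap2, Snrpd3, Snrpf, Pou2f1 and Eri1, against 9.09% of all genes, and 3 were higher, Cstf2t, Sympk and Mif4gd, against 9.49%. With PMA in HPg 6 were higher, Npat, Cstf3, Yy1, Hinfp, Lsm1 and Tut7, against 8.62% of all genes, and Sympk was lower, against 6.19%. With PMA in KO Lsm1 and Tut7 were higher, against 6.79%, and Zfp473 was lower, against 6.56%.

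Npat, the coactivator of histone transcription, stood at 58.9, 54.2 and 48.1 CPM in HPg with PMA, against 33.1, 42.2 and 36.1 CPM in HPg. It was higher only with the block (log2 fold change 0.54, edgeR adjusted p = 0.00639, and 0.0704 without). Casp8ap2, a partner of NPAT in histone locus bodies, stood at 32.2, 31.0 and 45.2 CPM in KO with PMA, against 63.5, 48.2 and 56.2 CPM in HPg with PMA. It was lower in KO only with the block (log2 fold change -0.64, edgeR adjusted p = 0.00997, and 0.0698 without). Slbp, which binds the stem-loop, averaged 47.7 ± 3.13 CPM in KO and 52.8 ± 3.16 CPM in HPg (log2 fold change -0.15, edgeR adjusted p = 0.655). The U7 proteins Lsm10 (-0.03, adjusted p = 0.968) and Lsm11 (0.16, adjusted p = 0.674) were not called in that comparison or any other.

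Of 23 histone chaperones and import factors, 0 were called between the lines without PMA, against 1.32% of all genes. Between the lines with PMA 2 were called, against 2.47% of all genes. With PMA, the importin Ipo4, which carries H3 and H4 to the nucleus, was higher in KO, at 108 ± 6.63 CPM against 74.3 ± 4.53 CPM in HPg with PMA (log2 fold change 0.54, edgeR adjusted p = 0.0233). Mms22l, which acts with TONSL on new H3-H4 at forks, was lower, at 36.0 ± 5.59 CPM in KO with PMA and 59.5 ± 8.62 CPM in HPg with PMA (log2 fold change -0.73, edgeR adjusted p = 0.0307). Ubn1, a subunit of the HIRA complex, was higher in KO with PMA, at 148 ± 22.4 CPM, than in KO, at 93.9 ± 7.55 CPM (log2 fold change 0.65, edgeR adjusted p = 0.0210). It was likewise higher in HPg with PMA, at 153 ± 22.1 CPM, than in HPg, at 96.9 ± 4.50 CPM (0.66, edgeR adjusted p = 0.0262). No other gene of this list was called with PMA in either line, against 4.44% of all genes called in KO and 3.45% in HPg. Asf1b, a chaperone of H3 and H4, averaged 12.0 ± 0.15 CPM in KO and 17.7 ± 4.75 CPM in HPg and was not called (edgeR adjusted p = 0.225), nor was Chaf1a, a subunit of the assembly factor CAF-1 (adjusted p = 0.448).

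With the block, 9 of the 23 chaperones and import factors were lower in KO with PMA than in HPg with PMA, against 9.09% of all genes, and Ipo4 was the 1 that was higher. Beside Mms22l, these were Asf1a, Nasp, Hat1, Hira, Ubn2, Cabin1, Nap1l1 and Cdan1. Asf1a, a chaperone of H3 and H4, averaged 32.8 ± 3.23 CPM in KO with PMA and 49.95 ± 9.36 CPM in HPg with PMA (blocked log2 fold change -0.60, edgeR adjusted p = 0.00157, and 0.0608 without the block). Hat1, which acetylates new H4, averaged 47.7 ± 9.93 and 68.7 ± 10.1 CPM in the same groups (blocked -0.53, edgeR adjusted p = 0.0114, and 0.118 without). Nasp, which binds H3 and H4 before assembly, averaged 58.2 ± 12.3 and 80.02 ± 17.2 CPM (blocked -0.45, edgeR adjusted p = 0.0211, and 0.251 without). Without PMA the block called Cabin1 and Cdan1 lower in KO, against 5.44% of all genes. With PMA in HPg it called Nasp, Rbbp7 and Ubn1 higher, against 8.62%, and Tonsl and Cdan1 lower, against 6.19%. With PMA in KO it called Nasp and Ubn1 higher, against 6.79%, and Cdan1 lower, against 6.56%.

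Replacement variants, which are made outside S phase too, gave no call among 12 tested genes in any comparison, a list that includes Hist1h1t. Of all genes, 1.32% to 4.44% were called in the comparisons of groups and 0% in the interaction. With the block, H2afj was lower in KO, at 19.0, 14.5 and 18.3 CPM against 32.4, 23.7 and 29.8 CPM in HPg, groups that did not overlap (log2 fold change -0.73, edgeR adjusted p = 0.00162, and 0.0610 without the block). It was lower in KO with PMA than in HPg with PMA too, again with the block alone (-0.42, edgeR adjusted p = 0.0259, and 0.204 without). H3f3b, an H3.3 gene, stood at 561, 431 and 522 CPM in KO with PMA, 463, 374 and 387 CPM in HPg with PMA, 427, 322 and 383 CPM in KO, and 375, 291 and 297 CPM in HPg. With the block it was higher with PMA in KO (log2 fold change 0.42, edgeR adjusted p = 0.00937) and in HPg (0.35, edgeR adjusted p = 0.0246), and in KO with PMA over HPg with PMA (0.31, edgeR adjusted p = 0.0376), none of which was called without it. With PMA in HPg the block also called 3 of the 12 lower, against 6.19% of all genes. H2afx, whose protein is phosphorylated at DNA breaks, averaged 186 ± 9.02 CPM in HPg with PMA and 258 ± 21.6 CPM in HPg (blocked log2 fold change -0.46, edgeR adjusted p = 0.0225, and 0.166 without). The others were H2afy2, a macroH2A gene (blocked -0.29, edgeR adjusted p = 0.0203), and the linker variant H1fx (blocked -0.67, edgeR adjusted p = 0.0244). H3f3a and H2afz were not called in any comparison, with or without the block, and H1f0 was not analysed here.

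Genes of S-phase entry and DNA synthesis mostly had values below 0 between the lines. Of 28 tested, 4 had a log2 fold change above 0 in KO over HPg without PMA (median -0.20) and 2 of 28 with PMA (median -0.21). Of all genes, 51.3% lay above 0 in each of these comparisons, with a median of 0.01. Cdk2, the kinase that phosphorylates NPAT, was called lower in KO, at 57.4 ± 5.26 CPM against 83.5 ± 5.31 CPM in HPg (log2 fold change -0.54, edgeR adjusted p = 0.0257). No other S-phase gene was called there, against 0.511% of all genes called lower. Cdk2 was higher in KO with PMA, at 78.9 ± 4.40 CPM, than in KO (log2 fold change 0.46, edgeR adjusted p = 0.0259). It was again the only S-phase gene called, against 4.44% of all genes called in either direction. With the block 7 S-phase genes were called lower in KO without PMA, where 5.44% of all genes were, E2f1 (-0.53, edgeR adjusted p = 0.00497) and Pcna (-0.38, edgeR adjusted p = 0.0289) among them. In KO with PMA over HPg with PMA 8 were called lower with the block, against 9.09% of all genes, E2f1 (-0.43, edgeR adjusted p = 0.0117) and Pcna (-0.32, edgeR adjusted p = 0.0458) among them again. The cyclin Ccne2 averaged 17.5 ± 3.95 CPM in KO and 19.9 ± 1.46 CPM in HPg (edgeR adjusted p = 0.691). In HPg with PMA over HPg, 18 of 28 S-phase genes lay above 0 (median 0.07), against 47.2% of all genes. None was called, against 3.45%. The block called 3 higher and 0 lower, against 8.62% and 6.19% of all genes. In KO with PMA over KO, 20 of 28 lay above 0 (median 0.05), against 47.7%. There the block called 4 higher and 1 lower, against 6.79% and 6.56%. The part of S-phase cells in the histone values was not tested.

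Because the called genes are testis variants, markers of germ cells were set beside them. Of 12 listed markers, Dazl, Tnp1, Prm1 and Prm2 had no count in any library. The 12 summed to 2.42 to 2.96 CPM in KO with PMA, 1.30 to 1.82 CPM in HPg with PMA, 2.48 to 2.79 CPM in KO and 1.03 to 1.53 CPM in HPg, so the KO sums lay above the HPg sums, as the testis histones did. This was not particular to germ cell markers: 5 blood and immune markers summed to 2.95 to 3.66 CPM in KO with PMA, 1.42 to 3.01 CPM in HPg with PMA, 2.13 to 2.90 CPM in KO and 1.34 to 1.62 CPM in HPg, with overlap between the lines only with PMA. The sums of 5 epithelial, 4 endothelial and 10 fibroblast markers overlapped between the lines with and without PMA. Whether cells of another kind had a part in these values was not tested. Ddx4, a germ cell helicase, was the only germ cell marker to reach 1 CPM on average over all libraries. It averaged 1.48 CPM, and Sycp3 came next at 0.36 CPM, so the germ cell sums rest mainly on Ddx4. Of 10 fibroblast markers, 9 averaged at least 1 CPM in every group, and Thy1 was at or near 0 throughout.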

How the data were processed

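The authors deposited raw counts per gene for 12 libraries, whole numbers without normalization. Per the labels' protocols, ribosomal RNA was removed from total RNA before strand-specific paired-end sequencing. Per the submitters' processing notes, featureCounts 1.4.6-p3, Subread, STAR 2.5.0a and cutadapt 1.11 were used with genome build mm9. Neither the strand setting nor the treatment of reads that match several places is stated in the sources used here. Many histone genes of 1 type are near-identical, though not all, so reads could be split or lost among those. In the annotation, 22 of the 56 overlap an exon of another gene, 20 of them on the opposite strand.

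Symbols, exon lengths and GC content came from GENCODE M21 on GRCm38. This is another build, so no mm9 coordinates are printed. Members and gene lists were chosen with earlier results of these data known. Named genes were the testis variants, every histone gene called (up to 10 with the block alone), the 3 of each type with the highest mean CPM, called list members and a fixed set of regulators.

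Genes with a count of 10 in enough libraries and a total of 15 (filterByExpr) were kept. All 12 libraries entered 1 fit with the quasi-likelihood F-test of edgeR 4.0.16 (R 4.3.3), robust estimation and TMM factors, and Benjamini-Hochberg adjustment over 16630 genes. Genes with an adjusted p under 0.05 are called. CPM are TMM-scaled. With 3 libraries a group, the smallest p of an exact permutation test would be 0.1. The scripts were tested on simulated data. No pair of replicates agreed within sampling noise (chi-square per degree of freedom 111.7 to 744).

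Same-numbered libraries deviated together from their group means (r = 0.16 to 0.56 in 18 pairs, against -0.52 to 0.16 in 36 differently numbered pairs). This pairing rests on numbers in the labels, whose meaning they do not state, and on these data. Alternatives were RLE factors, no scaling factors, DESeq2 1.42.0, other filters, only the groups compared, the replicate block, a correction for GC content and length, and leaving out libraries.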

Additional observations from a re-analysis of the deposited data

How the results depend on the processing

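Without PMA, the count of histone genes called between KO and HPg was 2, and 0 with only the groups compared. It was 10 (2 higher, 8 lower) with the GC content and length correction plus the replicate block, and 0 to 2 when libraries were left out one at a time. Between KO with PMA and HPg with PMA it was 2 to 2 when libraries were left out one at a time, 3 with the correction plus the block and 4 without all libraries numbered 2. For PMA in HPg it was 0, but 1 with DESeq2, 7 with the replicate block, 1 with the GC content and length correction, 15 with both, and 10 without libraries numbered 2, all lower. Leaving out single libraries gave 0. For PMA in KO it was 0, but 1 with the replicate block (Hist1h2ba, higher), 1 lower with the correction (Hist1h2af) and 5 lower with both, without Hist1h2ba. The cause was not tested. For most of these alternative fits the share of all genes called is not given here, so their counts cannot be set against it. The histone median stayed below 0 between KO and HPg (-0.24, but -0.46 and -0.06 without KO library 1 and 2, and -0.07, -0.43 and -0.16 without HPg library 1, 2 and 3) and for PMA in HPg (-0.40, but -0.23 and -0.62 without HPg library 1 and 2, and -0.65 without libraries numbered 2). It crossed 0 between the lines with PMA (-0.02 to 0.25, and -0.02 with the correction plus the block) and for PMA in KO (-0.23 to 0.14). Scaling by library size alone moved the median of all genes to -0.14 for PMA in KO, where the histone median was -0.18. No value changed from a call in one direction to the other. With the block, the calls of Hist1h2aa and Hist1h2ba between the lines remained. How far depth limited the low genes was not tested.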
